A study of Mus musculus with 11 samples.

Results

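Genes for 10 receptors that guide B-lineage cells between bone marrow, blood and lymphoid organs, Ccr2, Ccr6, Ccr7, Ccr9, Cxcr3, Cxcr4, Cxcr5, S1pr1, S1pr4 and Gpr183, were followed in mouse B-cell leukemia and in progenitor B cells. The genes were chosen by name and by their known role in homing, with earlier results of these data known. All 10 were present among the 23071 gene identifiers measured by RNA sequencing. The groups, all from C57BL/6 mice, were 5 leukemias (genotype Pax5+/- x Ebf1+/-, lymph node, 1 mouse each), 3 Ebf1+/- samples of progenitor B cells (bone marrow) and 3 Wild Type samples of progenitor B cells (bone marrow). The Ebf1+/- libraries were pools of 3, 6 and 7 mice, and the wild-type libraries were pools of 3, 7 and 6 mice. Lymph node cell suspensions of the leukemic mice were frozen without a stated purification, whereas the progenitors were purified on columns. Leukemia, genotype, organ, purification and pooling therefore differ together between the leukemias and the progenitors and cannot be told apart. Expression is given as FPKM (fragments per kilobase of transcript, scaled to the library total), so levels may be compared between genes.

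All of these receptors are membrane proteins that signal mainly through inhibitory G proteins, and a cell moves up a gradient of the ligand it can sense. CXCR4 senses CXCL12 and holds B-cell progenitors in the bone marrow niche. CCR7 and CXCR5 lead B cells into lymph node and follicle, GPR183 senses oxysterols and places activated B cells within the follicle, and S1PR1 senses sphingosine 1-phosphate (S1P) and lets lymphocytes leave an organ for blood or lymph. CCR2, CCR9 and CXCR3 are best known from monocytes, from gut-homing lymphocytes and plasmacytoid dendritic cells, and from activated T and NK cells.

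Library totals inferred from the FPKM values lay between 8506680 and 15313920 reads. For a gene of 2000 bases, 1 read corresponded to 0.0327 to 0.0588 FPKM. Correlations across genes ran from 0.952 to 0.974 between leukemias, from 0.893 to 0.944 between Ebf1+/- libraries and from 0.956 to 0.984 between wild-type libraries. Ebf1+/- replicate 2 and wild-type replicate 2 were the most similar of all 55 pairs of libraries (r = 0.989), closer than any 2 libraries of one group, although their counts differed by more than sampling noise. A mislabelled library was not tested, and leaving out Ebf1+/- replicate 2 changed no receptor's call in either comparison with Ebf1+/- cells. Without it, leukemia minus Ebf1+/- was -0.41 for Cxcr4 (adjusted p = 0.364), -1.67 for S1pr1 (0.179), -0.53 for S1pr4 (0.193), -0.17 for Ccr7 (0.731) and -1.12 for Gpr183 (0.0815). Ebf1+/- minus wild type was then -0.52 for Cxcr4 (adjusted p = 0.555), -0.12 for S1pr1 (0.926), -0.01 for S1pr4 (0.992), -0.33 for Ccr7 (0.711) and 0.83 for Gpr183 (0.308), all from limma. Values for the other receptors stand beside their results. The progenitor B cell markers (12 genes, including Vpreb1 and Igll1) summed to 3790 to 5490 FPKM in leukemia, 2240 to 6820 FPKM in Ebf1+/- cells and 3200 to 5620 FPKM in wild-type cells, so the labelled lineage was present in each library. Transcripts of other bone marrow cells were also present in the progenitors. Granulocyte markers (12 genes) summed to 3.98 to 9.17 FPKM in leukemia, 2720 to 10700 FPKM in Ebf1+/- cells and 625 to 3420 FPKM in wild-type cells, and megakaryocyte markers (9 genes) to 0.45 to 1.67, 151 to 4340 and 82.5 to 488 FPKM in the same groups. Ebf1+/- replicate 3 had both the lowest progenitor B cell sum of all libraries (2240 FPKM) and the highest megakaryocyte sum (4340 FPKM). Of the Ebf1+/- libraries it was also the lowest in Cxcr4, S1pr1, S1pr4 and Ccr7. In such bulk samples, fewer cells of a type and less RNA per cell cannot be told apart.

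RefSeq start-site windows (GRCm38.p6, 250 bases before to 50 bases after the start) were matched for 7 of the 10 genes, giving 8 windows because Ccr6 has 2. They were searched for the letters bound by regulators whose own transcripts are described further on: CAGGTG for the E2A proteins encoded by Tcf3, CCCNNGGG for EBF1, GTAAACA for FOXO factors and CACCC for KLF factors, each on both strands. The windows shown are those of the 4 genes that passed a test of leukemia against progenitor cells and had a RefSeq entry, with every match in capitals. Each reads 5′ to 3′ along the gene's own strand.
Cxcr4, minus strand, chr1:128592250-128592549: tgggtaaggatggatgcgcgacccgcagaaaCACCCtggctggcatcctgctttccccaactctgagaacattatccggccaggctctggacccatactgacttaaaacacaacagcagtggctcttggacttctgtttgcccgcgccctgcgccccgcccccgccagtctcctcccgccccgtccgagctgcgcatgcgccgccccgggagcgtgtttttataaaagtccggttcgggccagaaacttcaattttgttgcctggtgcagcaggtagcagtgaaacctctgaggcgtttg
S1pr4, minus strand, chr10:81500088-81500387: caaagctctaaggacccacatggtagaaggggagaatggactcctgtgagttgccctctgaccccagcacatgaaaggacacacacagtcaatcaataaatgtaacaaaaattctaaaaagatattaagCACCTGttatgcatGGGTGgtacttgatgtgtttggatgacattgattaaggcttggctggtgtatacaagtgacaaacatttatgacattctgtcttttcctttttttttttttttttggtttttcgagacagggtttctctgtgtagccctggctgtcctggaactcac
Ccr9, plus strand, chr9:123766961-123767260: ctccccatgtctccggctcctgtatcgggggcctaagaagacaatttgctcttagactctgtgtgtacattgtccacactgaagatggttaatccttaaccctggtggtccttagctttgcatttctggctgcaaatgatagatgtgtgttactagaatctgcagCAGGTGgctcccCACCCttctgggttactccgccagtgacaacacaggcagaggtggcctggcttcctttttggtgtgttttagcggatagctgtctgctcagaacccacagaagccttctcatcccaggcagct
Cxcr3, minus strand, chrX:101734098-101734397: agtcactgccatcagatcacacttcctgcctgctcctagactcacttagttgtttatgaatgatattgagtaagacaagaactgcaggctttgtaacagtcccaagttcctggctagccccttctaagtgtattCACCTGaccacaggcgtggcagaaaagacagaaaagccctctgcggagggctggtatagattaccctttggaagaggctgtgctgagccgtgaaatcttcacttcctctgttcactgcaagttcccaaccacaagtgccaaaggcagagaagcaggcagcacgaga
Capitals in the Cxcr4 window mark a CACCC that begins at -219 relative to the start site. In S1pr4 they mark CACCTG, the E-box read on the other strand, at -121 and GGGTG, the KLF letters on the other strand, at -107. Ccr9 held CAGGTG at -85 and CACCC at -73, and Cxcr3 held CACCTG at -116. No matches overlapped. The E-box letters were thus found in 3 of the 8 windows, against 20.2% of 32851 windows of all genes, and the KLF letters in 3 of 8, against 57.5%. Neither the EBF letters (13.7% of all windows) nor the FOXO letters (3.65%) occurred in the 8 windows. A match is a description of the sequence and not a bound site. The windows differed widely in base composition, with a GC content of 59.3% for Cxcr4, 51.3% for Ccr9, 49.3% for Cxcr3, 41.0% for S1pr4, 38% for Ccr2 and 35.3% for Gpr183, against a median of 52.7% over all windows.

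Cxcr4 was by far the most abundant homing receptor in every library, and 4 of the receptor transcripts fell in leukemia against wild type. Those 4 were Cxcr4, S1pr4, S1pr1 and Ccr9, of 8 receptors that reached a mean of 1 FPKM and were tested. None rose. Over the whole table limma called 44.8% of 10968 genes at an adjusted p under 0.05, with 24.1% of the genes lower and 20.7% higher. The 4 of 8 receptors are thus near the share called in either direction and above the share called lower, a reading that rests on 8 genes. The median difference of the 8 receptors was -0.88 on the log2(FPKM + 1) scale, beside -0.04 over all genes tested. In leukemia against Ebf1+/- cells, 2 of 9 tested receptors fell, Ccr9 and Cxcr3, where 21.6% of 11161 genes were called (12.3% lower, 9.31% higher); the median difference was -0.83, beside -0.02 over all genes. In Ebf1+/- against wild-type cells none of 9 tested receptors was called and 0 of 11167 genes (0%) passed limma's test. This fit did not pair libraries, and 863 genes had an unadjusted p under 0.05 (854 genes, and 0 called, with voom on the recovered reads). With a replicate block, which pairs libraries by number, limma gave 1800 such genes and again 0 called. The median over the 9 receptors there was 0.15, beside 0.03 over all genes. Differences below are on this log2 scale, which understates changes of low values, and adjusted p-values come from limma over all genes tested. Leukemia lay wholly below wild type in 4 of the 8 tested receptors and wholly above it in none, as did 25.1% and 21.2% of all genes tested. Against Ebf1+/- cells 3 of 9 lay wholly below (Ccr9, Cxcr3 and Cxcr5, the last by less than the rounding of 4.86 FPKM) and none above, beside 16.2% and 12.9% of all genes. Ebf1+/- cells lay wholly above wild type for 1 of 9 (Cxcr5) and wholly below for none, beside 7.53% and 8.1% of all genes. The comparisons share libraries and are not independent of one another.

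**Figure D1:**
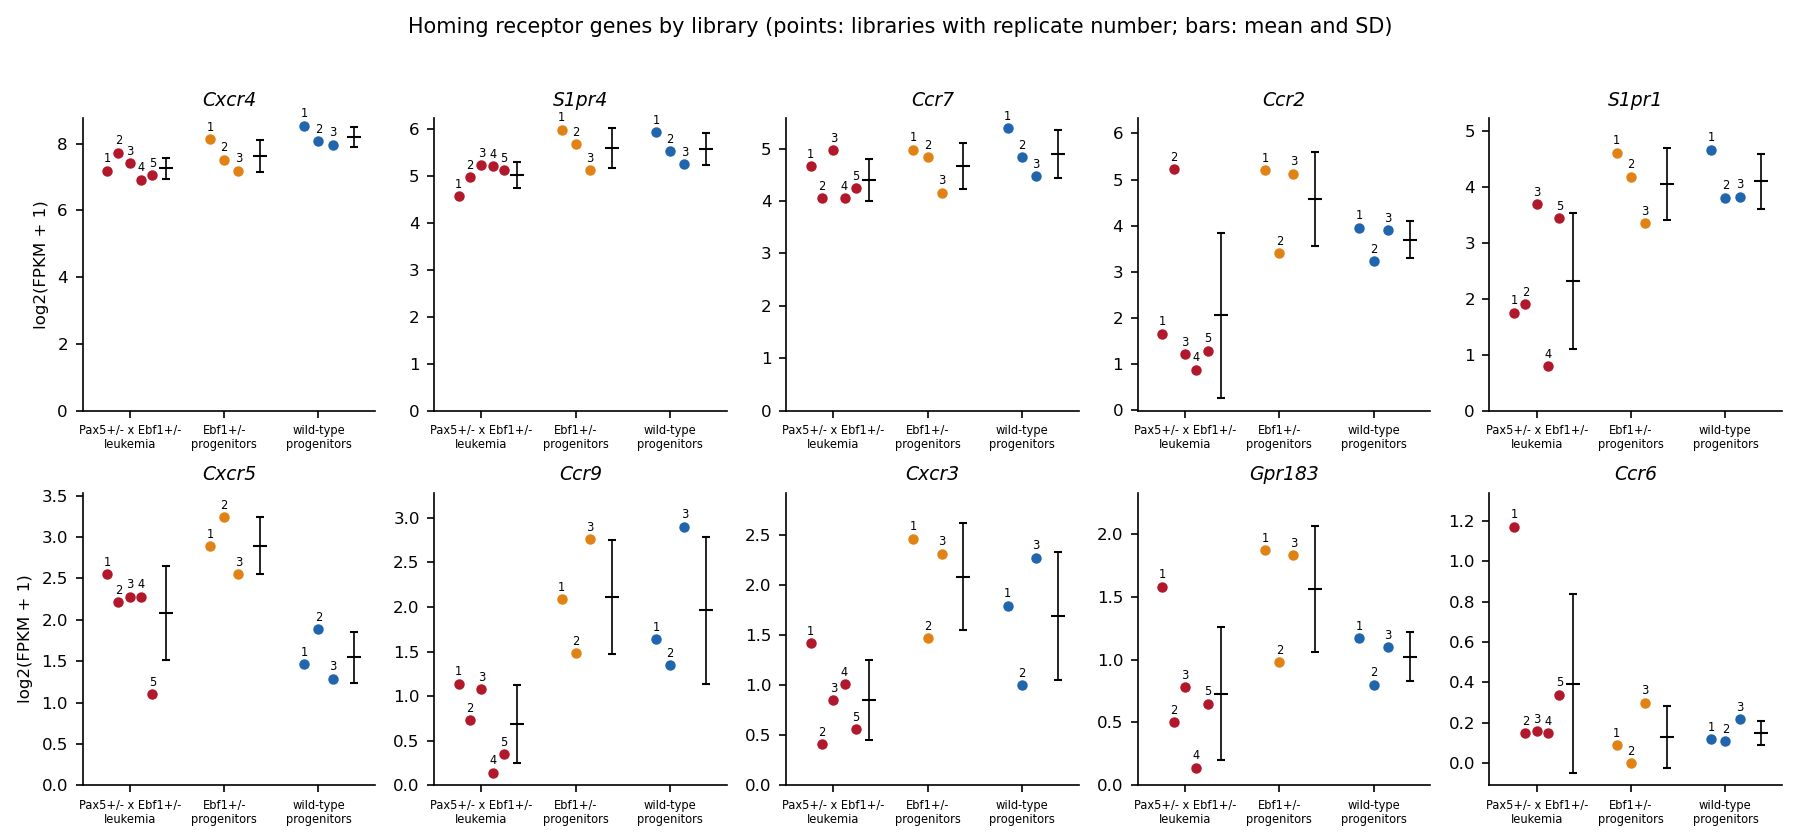
Expression of the 10 homing receptor genes, as log2(FPKM + 1) on the vertical axis, in 5 leukemias, 3 Ebf1+/- and 3 wild-type progenitor libraries; points are libraries with their replicate numbers, and bars give mean and SD. Cxcr4 is lower in each leukemia than in any wild-type library, Ccr2 is high in leukemia replicate 2 alone among the leukemias, and Ccr6 is near 0 outside leukemia replicate 1.

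Cxcr4 (chromosome 1, 128588199 to 128592293, GRCm38) encodes the CXCL12 receptor that keeps progenitors in the marrow. It was measured at 145, 211, 169, 120 and 133 FPKM in the 5 leukemias, at 282, 183 and 145 FPKM in Ebf1+/- cells and at 371, 268 and 249 FPKM in wild-type cells. Every leukemia lay below every wild-type library, while the Ebf1+/- values spanned the gap and overlapped both groups. The mean of 156 ± 36.1 FPKM in leukemia (SD, n = 5) was 52.6% of the 296 ± 65.5 FPKM in wild type (n = 3). The difference of -0.93 (SE 0.20) had an adjusted p of 0.00524, and the call held in all 16 alternatives run, with adjusted p from 0.00162 to 0.0468. Ebf1+/- cells averaged 203 ± 70.5 FPKM (n = 3), which is 68.7% of wild type and not past the test (difference -0.57, adjusted p = 0.7). Taken by replicate number, the Ebf1+/- library held 0.76, 0.683 and 0.583 times the Cxcr4 level of the wild-type library. Leukemia stood at 76.5% of Ebf1+/- cells (difference -0.36, adjusted p = 0.321).

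Cxcr4 supplied 66.2 to 70.1% of the summed FPKM of the 10 receptors in leukemia, 56.6 to 62.5% in Ebf1+/- cells and 71.6 to 72.8% in wild-type cells. Among all genes it ranked between 306 and 557 in the leukemias, between 249 and 442 in Ebf1+/- libraries and between 153 and 212 in wild-type libraries. In each group its range did not overlap that of the next receptor, S1pr4. Lower down, the order in leukemia, from high to low mean, was S1pr4, Ccr7, Ccr2, S1pr1, Cxcr5, Cxcr3, Gpr183, Ccr9 and Ccr6. The ranges of neighbours overlapped there for every pair. Such ranges run across mice and do not compare genes within a library: Cxcr5 exceeded Cxcr3 in each leukemia although their ranges overlapped. In wild-type cells the order was S1pr4, Ccr7, S1pr1, Ccr2, Ccr9, Cxcr3, Cxcr5, Gpr183 and Ccr6, with gaps below Ccr2, below Cxcr5 and below Gpr183. In Ebf1+/- cells the gaps lay below S1pr1 and below Gpr183, and Cxcr5 stood sixth in place of eighth.

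S1pr1 (chromosome 3, 115710433 to 115715072) encodes the S1P receptor needed for lymphocyte egress. Its level was 2.37, 2.72, 12, 0.74 and 9.84 FPKM in leukemia, 23.6, 17.3 and 9.18 FPKM in Ebf1+/- cells and 24.4, 13 and 13.2 FPKM in wild-type cells. Leukemia replicates 3 and 5 lay above the lowest Ebf1+/- library and below all wild-type libraries, and the other 3 leukemias lay below all progenitors, a 16.2-fold range among 5 tumours. The means were 5.53 ± 5.02 FPKM in leukemia, 16.7 ± 7.22 FPKM in Ebf1+/- cells and 16.9 ± 6.53 FPKM in wild-type cells. S1pr1 fell in leukemia against wild type by 1.79 (SE 0.62, adjusted p = 0.0424), without overlap of the groups. This call was lost in 10 of 16 alternatives, including the fits without leukemia replicate 1, 2 or 4 and without each wild-type replicate in turn, where the adjusted p reached 0.145. Against Ebf1+/- cells the difference was -1.74 (adjusted p = 0.0841), and without leukemia replicate 3 it was called (-2.08, adjusted p = 0.0453). Ebf1+/- and wild-type cells differed by -0.05 (adjusted p = 0.976).

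The spread of S1pr1 between leukemias, with an SD of 1.22 on the log2 scale, was larger than that of 98.5% of the 10597 genes whose leukemia mean reached 1 FPKM, whose median SD was 0.19. Klf2 encodes a transcription factor that activates S1pr1 in lymphocytes. It was measured at 4.34, 33.2, 7.55, 0.681 and 2.54 FPKM in the leukemias, at 103, 45.1 and 27.7 FPKM in Ebf1+/- cells and at 160, 65.3 and 64.2 FPKM in wild-type cells. Klf2 and S1pr1 were both lowest in leukemia replicate 4, yet Klf2 was highest in replicate 2, where S1pr1 was low. Cd69, whose protein binds S1PR1 and takes it off the cell surface, was measured at 31.9, 36.8, 21.1, 29.6 and 17.4 FPKM in leukemia, at 21, 7.87 and 6.28 FPKM in Ebf1+/- cells and at 15, 8.22 and 9.75 FPKM in wild-type cells. It rose in leukemia against both wild type (difference 1.23, adjusted p = 0.00506) and Ebf1+/- cells (1.29, adjusted p = 0.0365), the second call being lost without Ebf1+/- replicate 2 (1.12, adjusted p = 0.115). The 2 leukemias with the most S1pr1, replicates 3 and 5, had the least Cd69.

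**Figure D2:**
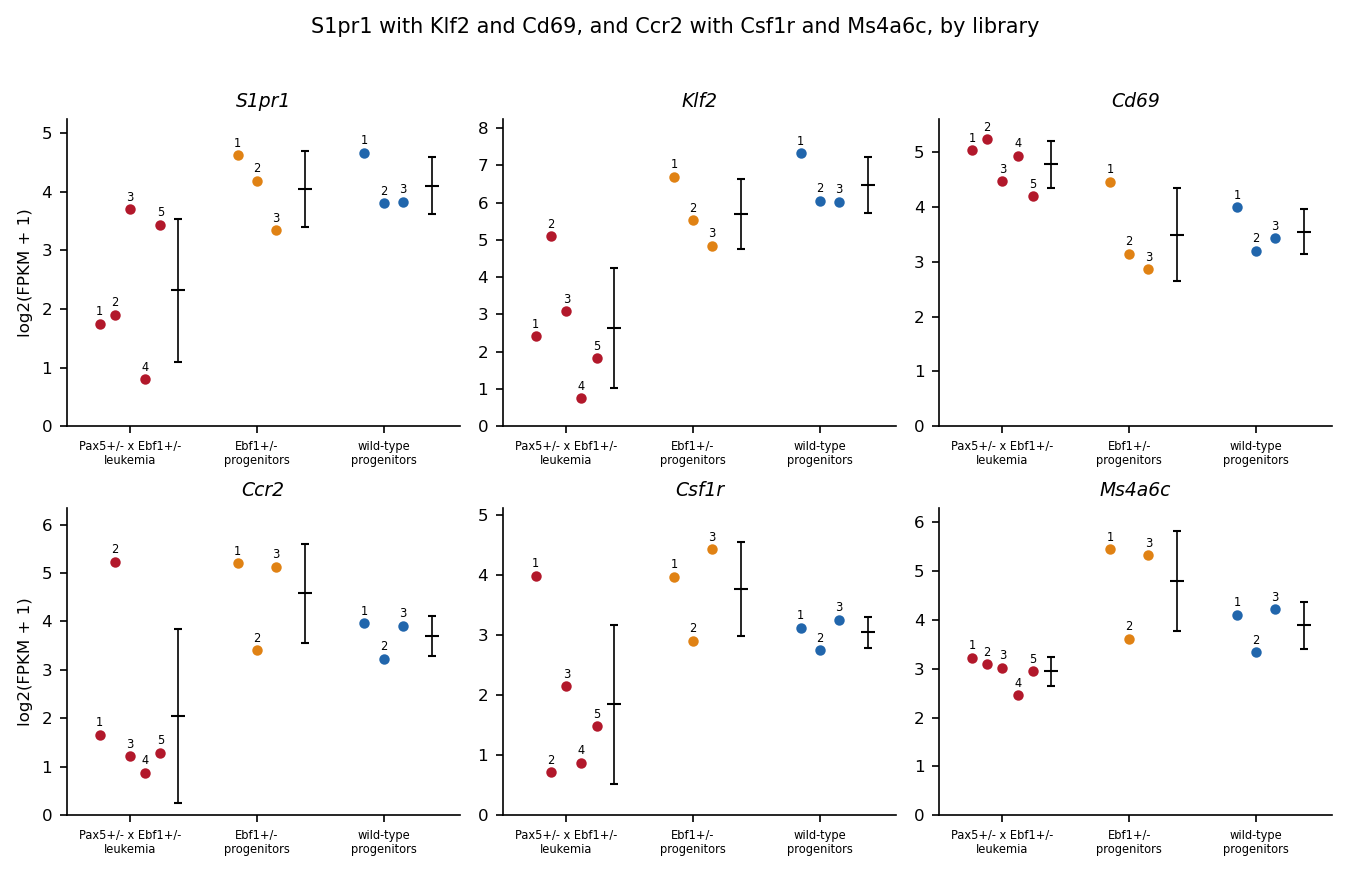
S1pr1 with its activator Klf2 and its surface antagonist Cd69 (top), and Ccr2 with the monocyte markers Csf1r and Ms4a6c (bottom), as log2(FPKM + 1) per library; points carry replicate numbers, and bars give mean and SD of 5 leukemias, 3 Ebf1+/- and 3 wild-type libraries. Leukemia replicate 2 stands apart in Ccr2, while it has the lowest Csf1r of the leukemias (0.65 FPKM) and Ms4a6c ran from 4.48 to 8.36 FPKM across them.

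S1pr4 (chromosome 10, 81497747 to 81500132) encodes a second S1P receptor, found mainly on blood and lymphoid cells. It was the second receptor by level in every group, at 22.8, 30.3, 36.2, 36.0 and 33.7 FPKM in leukemia, 61.9, 50 and 33.8 FPKM in Ebf1+/- cells and 59.4, 44.9 and 36.8 FPKM in wild-type cells. The highest leukemia, at 36.2 FPKM, and the lowest wild-type library, at 36.8 FPKM, nearly touched. S1pr4 averaged 31.8 ± 5.57 FPKM in leukemia, 48.6 ± 14.1 FPKM in Ebf1+/- cells and 47.0 ± 11.5 FPKM in wild-type cells. It fell in leukemia against wild type by 0.54 (SE 0.19, adjusted p = 0.0418), but 10 of 16 alternatives no longer called it, with adjusted p up to 0.164. Those included median-ratio scaling and the fits without leukemia replicate 1, 2 or 5 or without wild-type replicate 1 or 2. Against Ebf1+/- cells the difference was -0.57 (adjusted p = 0.0891; called at 0.0305 without Ebf1+/- replicate 3), and Ebf1+/- against wild-type cells gave 0.03 (adjusted p = 0.979).

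Ccr7 (chromosome 11, 99144196 to 99155077), the receptor for CCL19 and CCL21 that brings lymphocytes into lymph nodes, passed no test although the leukemias were taken from lymph nodes. Its values were 24.3, 15.7, 30.4, 15.6 and 17.9 FPKM in leukemia, 30.6, 27.6 and 16.9 FPKM in Ebf1+/- cells and 40.9, 27.6 and 21.3 FPKM in wild-type cells, and all groups overlapped. The means were 20.8 ± 6.42, 25 ± 7.25 and 29.9 ± 10 FPKM in leukemia, Ebf1+/- and wild-type cells. Ccr7 differed by -0.50 between leukemia and wild type (SE 0.26, adjusted p = 0.145), by -0.26 between leukemia and Ebf1+/- cells (adjusted p = 0.51) and by -0.24 between Ebf1+/- and wild-type cells (adjusted p = 0.832). No alternative called it in any comparison.

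Cxcr5 (chromosome 9, 44511787 to 44561877) encodes the CXCL13 receptor of mature follicular B cells. It was the only tested receptor with a higher mean in leukemia than in wild type. Its values were 4.86, 3.62, 3.85, 3.84 and 1.15 FPKM in leukemia, 6.42, 8.42 and 4.86 FPKM in Ebf1+/- cells and 1.76, 2.71 and 1.45 FPKM in wild-type cells. Leukemia replicate 5 lay below all wild-type libraries and the other 4 leukemias above them. The means were 3.46 ± 1.38 FPKM in leukemia and 1.97 ± 0.656 FPKM in wild type, a difference of 0.53 (SE 0.32, adjusted p = 0.197) that was called without leukemia replicate 5 (0.78, adjusted p = 0.0113). Ebf1+/- cells, at 6.57 ± 1.79 FPKM, had 3.33 times the wild-type level, and by replicate number the ratios were 3.65, 3.11 and 3.35. Their lowest library exceeded the highest wild-type one. The difference of 1.34 (SE 0.26) had an unadjusted p of 0.00121 and an adjusted p of 0.256, so it was not called; without Ebf1+/- replicate 2 it was 1.17 (adjusted p = 0.238). An exon of Bcl9l on the opposite strand covers 110 bases of Cxcr5 exons, and with strand use in counting not stated, reads there could belong to either gene. Leukemia against Ebf1+/- cells gave -0.81 (adjusted p = 0.104), or -0.64 without Ebf1+/- replicate 2 (adjusted p = 0.27).

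Gpr183 (chromosome 14, 121952551 to 121965195) and Ccr6 (chromosome 17, 8236043 to 8257141) had low values, and Ccr6 stood near the limit of detection. Gpr183, the oxysterol receptor, was measured at 2.0, 0.415, 0.712, 0.105 and 0.569 FPKM in leukemia, 2.66, 0.97 and 2.57 FPKM in Ebf1+/- cells and 1.26, 0.745 and 1.15 FPKM in wild-type cells. That was 50, 16, 26, 4 and 24 reads in leukemia, 120, 32 and 95 reads in Ebf1+/- cells and 41, 26 and 49 reads in wild-type cells. Leukemia replicate 1 was the only leukemia above the wild-type libraries. The mean over leukemia and wild type stayed under 1 FPKM, so that pair was not tested; the difference was 0.53 for Ebf1+/- against wild-type cells (adjusted p = 0.719) and -0.83 for leukemia against Ebf1+/- cells (adjusted p = 0.132). Ccr6, the CCL20 receptor, had 22, 3, 3, 3 and 8 reads in leukemia, 2, 0 and 6 reads in Ebf1+/- cells and 2, 2 and 5 reads in wild-type cells. Leukemia replicate 1, at 1.24 FPKM, was alone in exceeding 0.268 FPKM, and Ccr6 was not tested in any comparison. The same library had the most Siglech among the leukemias, 7.9 FPKM against 0.159 to 0.408 FPKM in the other 4. The 8 dendritic cell markers summed to 61.4 FPKM there and to 9.12 to 18.0 FPKM in the other leukemias, but Flt3, which progenitors also express, made up 57.8 FPKM of it, against 8.44 to 17.5 FPKM in the others. The mature B cell markers (7 of 8 measured) summed to 501 FPKM in leukemia replicate 1, against 63.5 to 160 FPKM in the other leukemias. Cd74 made up 355 FPKM of that sum, against 41.9 to 108 FPKM in the others. The part of dendritic cells or mature B cells in the Gpr183 and Ccr6 values was not tested.

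Ccr2 (chromosome 9, 124101950 to 124113557), the receptor for CCL2 that releases monocytes from marrow, separated 1 leukemia from the others. It was measured at 2.16, 36.5, 1.33, 0.84 and 1.44 FPKM in leukemia replicates 1 to 5, at 35.8, 9.59 and 34.1 FPKM in Ebf1+/- cells and at 14.5, 8.36 and 14.1 FPKM in wild-type cells. Replicate 2 carried 16.9 times the Ccr2 of the next leukemia and more than any progenitor library, whereas the other 4 leukemias (1.44 ± 0.546 FPKM) lay below all of them. With all 5 leukemias the difference from wild type was -1.64 (SE 0.89, adjusted p = 0.16) and that from Ebf1+/- cells -2.52 (SE 0.94, adjusted p = 0.0868). Without replicate 2 they were -2.44 (adjusted p = 0.000336) and -3.32 (adjusted p = 0.00291), and both were called. Ebf1+/- against wild-type cells gave 0.88 (SE 0.50, adjusted p = 0.722), with ratios by replicate number of 2.46, 1.15 and 2.42. Without Ebf1+/- replicate 2 this difference was 1.47 (adjusted p = 0.198) and that of leukemia from Ebf1+/- cells -3.11 (adjusted p = 0.0844).

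Monocyte markers were measured beside Ccr2, since monocytes carry this receptor. All 10 were in the table, and they summed to 236, 133, 281, 142 and 273 FPKM in leukemia, 1850, 466 and 931 FPKM in Ebf1+/- cells and 635, 384 and 433 FPKM in wild-type cells. Lyz2 made up most of the sum in each progenitor library, at 1630, 378 and 709 FPKM in Ebf1+/- cells and 517, 308 and 320 FPKM in wild-type cells. Among progenitor libraries the sums and Ccr2 were both lowest in replicate 2 of each genotype. In leukemia replicate 2 the sum was the lowest of all 11 libraries. Most of it was Ly86 (90.8 FPKM), which rose in leukemia against wild type, and Lyz2 (33.9 FPKM). Csf1r, at 0.65 FPKM, was the lowest of the leukemias. The other low markers did not set this library apart. Cd14 was listed at 0 FPKM in every leukemia but replicate 5 (0.084 FPKM). F13a1 was 0.214 FPKM there, within the 0.0591 to 0.389 FPKM of the leukemias. In leukemia, Ccr2 had an SD of 1.8 on the log2 scale, larger than that of 99.6% of genes, against 0.56 for Cxcr5, 0.4 for Ccr7, 0.32 for Cxcr4 and 0.27 for S1pr4.

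Ccr9 (chromosome 9, 123678439 to 123784330), the CCL25 receptor of gut-homing lymphocytes and plasmacytoid dendritic cells, lies 317619 bases before Ccr2. It was low throughout, at 1.2, 0.66, 1.12, 0.106 and 0.27 FPKM in leukemia, 3.27, 1.79 and 5.79 FPKM in Ebf1+/- cells and 2.11, 1.56 and 6.47 FPKM in wild-type cells. All 5 leukemias lay below all 6 progenitor libraries. The leukemia mean of 0.672 ± 0.491 FPKM was 18.6% of that in Ebf1+/- cells (3.62 ± 2.02 FPKM) and 19.9% of that in wild-type cells (3.38 ± 2.69 FPKM). Ccr9 fell by 1.28 against wild type (SE 0.38, adjusted p = 0.0243) and by 1.42 against Ebf1+/- cells (SE 0.35, adjusted p = 0.021). The first call was lost without wild-type replicate 3 (-0.81, adjusted p = 0.0878) and the second without Ebf1+/- replicate 3 (-1.10, adjusted p = 0.0685). Without Ebf1+/- replicate 2 the second was -1.74 (adjusted p = 0.0165), and Ebf1+/- minus wild type was 0.46 (adjusted p = 0.716). Exons of other genes cover part of the Ccr9 exons, among them 22 bases of Slc6a20a and 1932 bases of AC165425.1, both on the opposite strand.

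Cxcr3 (chromosome X, 101731535 to 101734269), the receptor for CXCL9, CXCL10 and CXCL11, was measured at 1.68, 0.332, 0.802, 1.01 and 0.477 FPKM in leukemia, 4.5, 1.77 and 3.95 FPKM in Ebf1+/- cells and 2.47, 0.996 and 3.82 FPKM in wild-type cells. Each leukemia was below each Ebf1+/- library, and 2 leukemias exceeded the lowest wild-type library. Cxcr3 averaged 0.86 ± 0.53 FPKM in leukemia, 3.41 ± 1.44 FPKM in Ebf1+/- cells and 2.43 ± 1.41 FPKM in wild-type cells. It fell against Ebf1+/- cells by 1.23 (SE 0.31, adjusted p = 0.0238), a call lost without Ebf1+/- replicate 1 (0.0675) or 3 (0.0729) and kept without replicate 2 (-1.53, adjusted p = 0.0148), where Ebf1+/- minus wild type was 0.70 (adjusted p = 0.511). Against wild type the difference was -0.84 (adjusted p = 0.0655), called without leukemia replicate 1 (0.0412) or wild-type replicate 2 (0.0233).

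Some plasmacytoid dendritic cell markers moved with Ccr9, and some NK and T cell markers moved with Cxcr3 in the comparison with Ebf1+/- cells, where Cxcr3 was called; against wild type they did not move one way. Siglech, a defining plasmacytoid dendritic cell gene, was measured at 7.9, 0.159, 0.168, 0.194 and 0.408 FPKM in leukemia, 21, 8.85 and 33.1 FPKM in Ebf1+/- cells and 14.9, 7.56 and 39.5 FPKM in wild-type cells. Like Ccr9, Siglech and Pacsin1 were highest in replicate 3 and lowest in replicate 2 within both progenitor groups. Bst2, Klk1, Cox6a2 and Tcf4 had this pattern in wild-type cells only. In Ebf1+/- cells Bst2, Klk1 and Cox6a2 were instead highest in replicate 1 (146, 11 and 47 FPKM). Tcf4 and Ly6d were lowest in Ebf1+/- replicate 3 (23.7 and 240 FPKM), and Ly6d also in wild-type replicate 3 (366 FPKM). All 8 plasmacytoid dendritic cell markers summed to 214 to 714 FPKM in leukemia. The sums were 597 to 1310 FPKM in Ebf1+/- cells and 939 to 1550 FPKM in wild-type cells. Spib and Ly6d made up most of the sum in each progenitor library. Of 7 tested, 3 fell in leukemia against wild type (Siglech, Klk1 and Spib), beside 24.1% of all genes lower. The same 3 fell against Ebf1+/- cells, beside 12.3% of all genes lower. Spib, which is also on the list of transcription factors, did not follow Ccr9 within the progenitors. It was lowest in replicate 3 of both groups (132 FPKM in Ebf1+/- and 377 FPKM in wild-type cells), where Ccr9 was highest. T cell markers (10 of 12 in the table) summed to 112 to 202 FPKM in leukemia, 91.8 to 175 FPKM in Ebf1+/- cells and 97.0 to 161 FPKM in wild-type cells. Lck was the largest part in each leukemia (51.7 to 106 FPKM) and Cd2 in each wild-type library (48.2 to 114 FPKM). The sums thus rest on different genes and do not compare T cell content. NK cell markers (9 genes) summed to 24.3 to 60.4, 33.9 to 114 and 21.7 to 37.3 FPKM in leukemia, Ebf1+/- and wild-type cells. Against wild type, 1 of 9 tested T cell markers rose (Lck, to 71.1 ± 21.4 FPKM in leukemia against 15.3 ± 3.27 FPKM, 2.12, adjusted p = 0.000159) and 1 fell (Cd2). Of 4 tested NK cell markers 1 rose (Klrd1, to 21.5 ± 10.8 FPKM against 4.34 ± 2.24 FPKM, 2.04, adjusted p = 0.00589) and 1 fell (Gzma, to 0.743 ± 0.596 FPKM against 5.93 ± 2.96 FPKM, -1.97, adjusted p = 0.00142), beside 44.8% of all genes called. Relative to Ebf1+/- cells, 1 of 10 T cell markers rose (Lck) and 3 fell (Cd3e, Cd3g and Cd8b1), with a median of -1.05. Of 7 NK cell markers 4 fell (Ncr1, Klrk1, Gzma and Prf1) and 0 rose, with a median of -1.43; the share over all genes was 21.6% called, 12.3% lower. The part of these cells in the Ccr9 and Cxcr3 values was not tested.

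**Figure D3:**
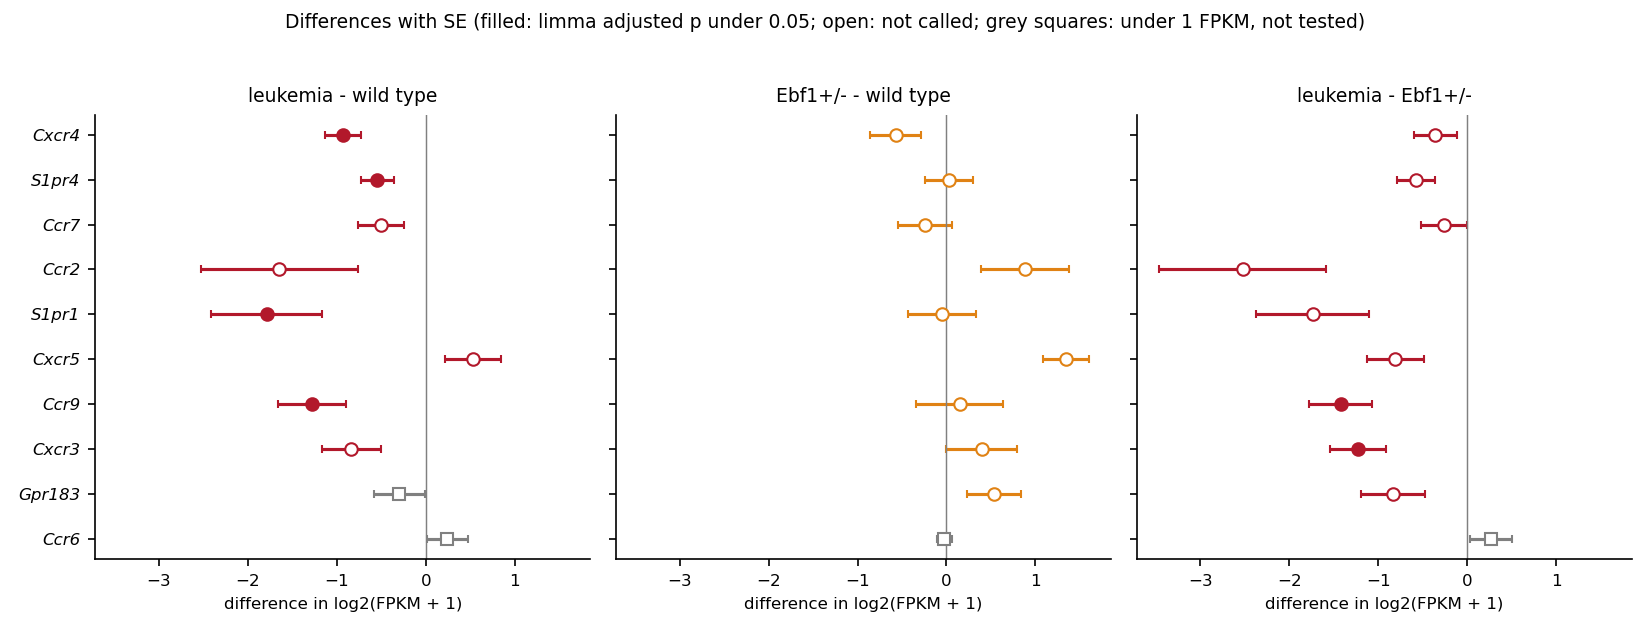
Differences of the 10 receptor genes on the log2(FPKM + 1) scale (horizontal axis, with SE) for leukemia minus wild type, Ebf1+/- minus wild type and leukemia minus Ebf1+/-; filled circles passed limma's adjusted p under 0.05, open circles were tested and not called, and grey squares were under 1 FPKM. Cxcr4, S1pr4, S1pr1 and Ccr9 are filled in the first panel, no gene in the second, and Ccr9 and Cxcr3 in the third.

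Ligand genes of these receptors had low values in all libraries. Of 12 chemokine genes, only Ccl25, which encodes the CCR9 ligand, reached a mean of 1 FPKM and was tested. It averaged 2.82 ± 1.18 FPKM in leukemia, 2.68 ± 1.16 FPKM in Ebf1+/- cells and 1.77 ± 0.448 FPKM in wild-type cells, with an adjusted p of 0.186 for leukemia against wild type. Cxcl12, the CXCR4 ligand made by marrow stroma, averaged 0.026 ± 0.024 FPKM in leukemia, 0.853 ± 0.567 FPKM in Ebf1+/- cells and 0.565 ± 0.443 FPKM in wild-type cells. Ccl19, Ccl20, Ccl21a and Cxcl11 were listed at 0 in every library. A 0 in this table may not mean absence, since the hemoglobin genes Hba-a1, Hba-a2, Hbb-bs and Hbb-bt were also listed at 0 in all 11 libraries while the red cell gene Car1 reached 582 FPKM. Among atypical receptors, which take up chemokines without G protein signalling, Ackr4 rose in leukemia, to 1.86 ± 0.795 FPKM against 0.652 ± 0.202 FPKM in wild type (difference 0.76, adjusted p = 0.0307). Ackr4 is a scavenger of CCL19, CCL21 and CCL25; against Ebf1+/- cells (0.787 ± 0.181 FPKM) it was not called (0.64, adjusted p = 0.105). Ackr2, a scavenger of inflammatory chemokines, was under the level for testing, at 1.28 ± 0.797 FPKM in leukemia, 0.0689 ± 0.0183 FPKM in Ebf1+/- cells and 0.0509 ± 0.0447 FPKM in wild-type cells.

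Of the 12 other chemokine receptor genes, 3 were tested against wild type and 1 fell, beside 24.1% of all genes. This was Cx3cr1, a receptor gene of monocytes and NK cells. It averaged 0.174 ± 0.159 FPKM in leukemia, 4.28 ± 2.51 FPKM in Ebf1+/- cells and 2.4 ± 0.903 FPKM in wild-type cells (leukemia minus wild type -1.51, adjusted p = 0.00129). Relative to Ebf1+/- cells, 2 of 4 tested fell, Cx3cr1 (-2.06, adjusted p = 0.00309) and Ccr1, a receptor gene of myeloid cells (-1.59, adjusted p = 0.00816), beside 12.3% of all genes. The monocyte marker sums given beside Ccr2 were also lower in leukemia than in both progenitor groups. They include Cx3cr1 itself and were mostly Lyz2 in the progenitors. Within Ebf1+/- cells the sum and Ccr1 were highest in replicate 1, but Cx3cr1 was highest in replicate 3 (6.86 FPKM).

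Of 9 tested genes for the other S1P receptors and for making, moving and breaking down S1P, 5 fell in leukemia against wild type and 0 rose (median -0.35), where 44.8% of all genes were called, 24.1% lower, with a median of -0.04. The 5 were Sphk1, Sphk2, Mfsd2b, Sgpl1 and Sgpp1. The receptor gene S1pr2 was measured at 1.54 ± 0.469 FPKM in leukemia and 1.48 ± 0.122 FPKM in wild type (0.02, adjusted p = 0.938), and S1pr3 at 2.81 ± 1.89 FPKM in leukemia and 1.13 ± 0.235 FPKM in wild type (0.71, adjusted p = 0.137). Sphk1, one of the kinases that make S1P, was listed at 0 in all 5 leukemias, against 13.3, 16.4 and 36.1 FPKM in Ebf1+/- cells and 8.13, 20.4 and 51.7 FPKM in wild-type cells. Car1, a red cell marker, had the same order of libraries within both progenitor groups, being listed at 0 in all 5 leukemias, at 221, 237 and 539 FPKM in Ebf1+/- cells and at 81.3, 249 and 582 FPKM in wild-type cells. Taking 3 reads over the 5 leukemias as the floor (0.0213 FPKM), Sphk1 was at least 1030-fold lower than in Ebf1+/- cells and at least 1250-fold lower than in wild type. Sphk2, the other kinase, fell to 9.91 ± 1.21 FPKM in leukemia against 14.8 ± 0.606 FPKM in wild type (-0.54, adjusted p = 0.00436). Mfsd2b, which encodes the S1P exporter of red cells and platelets, averaged 0.101 ± 0.0669 FPKM in leukemia, 51.5 ± 64.9 FPKM in Ebf1+/- cells and 22.4 ± 18.6 FPKM in wild-type cells (leukemia minus wild type -4.05, adjusted p = 0.000246). Markers of red cells (6 of 10 genes, the other 4 being listed at 0) summed to 57.0 to 148, 472 to 1120 and 216 to 1180 FPKM in leukemia, Ebf1+/- and wild-type cells and moved with Sphk1 and Mfsd2b, as did the megakaryocyte markers; their part in both was not tested. Sgpl1, for the lyase that destroys S1P, and Sgpp1, for a phosphatase, fell by 0.35 (adjusted p = 0.0362) and 0.42 (adjusted p = 0.0437). Spns2, the S1P exporter of endothelium, was measured at 6.87 ± 3.89 FPKM in leukemia and 4.4 ± 1.26 FPKM in wild type (0.25, adjusted p = 0.779). Relative to Ebf1+/- cells, 3 of 9 fell, Sphk1, Sphk2 and Mfsd2b, beside 12.3% of all genes lower.

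Of the 4 oxysterol genes that control the GPR183 ligand, Hsd3b7, which encodes the enzyme that inactivates it, fell to 1.41 ± 0.537 FPKM in leukemia against 7.26 ± 4.4 FPKM in Ebf1+/- cells (-1.63, adjusted p = 0.0176) and 3.66 ± 0.968 FPKM in wild-type cells (-0.96, adjusted p = 0.00903). Ch25h, for the enzyme that starts its synthesis, was listed at 0 in all leukemias and all wild-type libraries.

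Of 20 tested genes of the signalling machinery downstream of the receptors, 10 fell and 1 rose in leukemia against wild type, with a median of -0.33; the share called was near the 44.8% of all genes (24.1% lower, 20.7% higher). Against Ebf1+/- cells 4 fell and 2 rose, with a median of -0.38, where 21.6% of all genes were called. Gnai2, the main inhibitory G protein subunit gene of lymphocytes, fell to 226 ± 20 FPKM in leukemia, against 369 ± 17.7 FPKM in Ebf1+/- cells (-0.71, adjusted p = 0.00346) and 325 ± 34.9 FPKM in wild-type cells (-0.52, adjusted p = 0.00483). Gna13, for the G protein subunit that confines B cells to follicles, fell by 0.46 against wild type (adjusted p = 0.00339) and was not called against Ebf1+/- cells (-0.31, adjusted p = 0.18). Elmo1, a partner of DOCK2 in activating Rac, rose by 0.59 against wild type (adjusted p = 0.00221) and by 0.40 against Ebf1+/- cells (adjusted p = 0.0486).

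Genes that switch receptors off went both ways. Of 14 tested, 4 rose and 4 fell against wild type, with a median of -0.08, beside 44.8% of all genes called and their median of -0.04. Rgs2, for a brake on G proteins, fell to 18.7 ± 4.31 FPKM in leukemia, against 47.4 ± 22.7 FPKM in Ebf1+/- cells (-1.22, adjusted p = 0.0158) and 87.4 ± 36.1 FPKM in wild-type cells (-2.12, adjusted p = 0.00027). Rgs19, another such brake, rose to 54.4 ± 5.83 FPKM in leukemia, against 28.4 ± 5.68 FPKM in wild type (0.92, adjusted p = 0.000906); Ebf1+/- cells had 39.1 ± 11.4 FPKM (0.50, adjusted p = 0.0801). Arrb2, for a β-arrestin that uncouples chemokine receptors, rose to 34.6 ± 6.36 FPKM against 20 ± 2.91 FPKM in wild type (0.75, adjusted p = 0.00461), but Ebf1+/- cells had 40.7 ± 12.3 FPKM, and the difference from them was -0.20 (adjusted p = 0.559). Adrbk1, for the kinase that marks receptors for arrestin, fell to 257 ± 34.3 FPKM against 380 ± 62.1 FPKM in wild type (-0.56, adjusted p = 0.0118), with 281 ± 62.9 FPKM in Ebf1+/- cells (-0.11, adjusted p = 0.68). Relative to Ebf1+/- cells, 1 of 14 rose (Cd69) and 2 fell (Rgs2 and Rgs16), a share near the 21.6% of all genes called.

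Among transcription factors linked to homing receptor genes, 11 of 13 tested fell in leukemia against wild type and none rose, with a median of -1.25, beside 24.1% of all genes lower and a median of -0.04. Against Ebf1+/- cells 5 of 13 fell (Klf2, Tcf3, Bach2, Irf4 and Spib) and 0 rose, with a median of -0.76, beside 12.3% of all genes lower and a median of -0.02. Spib, which had the smallest p of the list, fell to 42.8 ± 10.2 FPKM in leukemia, against 228 ± 88.9 FPKM in Ebf1+/- cells (-2.33, adjusted p = 0.000789) and 494 ± 142 FPKM in wild-type cells (-3.49, adjusted p = 1.28e-05). Bach2, a repressor that holds B cells in their early programme, fell to 12.5 ± 5.64 FPKM, against 120 ± 14.6 FPKM in wild type (-3.25, adjusted p = 9.72e-05). Klf2 fell to 9.67 ± 13.4 FPKM, against 58.6 ± 39.5 FPKM in Ebf1+/- cells (-3.05, adjusted p = 0.0329) and 96.6 ± 55.1 FPKM in wild-type cells (-3.83, adjusted p = 0.00556); the call against Ebf1+/- cells was lost without Ebf1+/- replicate 2 (-3.14, adjusted p = 0.0771). Foxo1, which activates Ccr7 and, through Klf2, S1pr1 in lymphocytes, fell to 26.0 ± 10.6 FPKM against 61.4 ± 9.72 FPKM in wild type (-1.29, adjusted p = 0.00809), with 43.4 ± 14.9 FPKM in Ebf1+/- cells (-0.76, adjusted p = 0.149). Tcf3, which encodes the E2A proteins, fell to 82.8 ± 20.1 FPKM, against 215 ± 50.2 FPKM in Ebf1+/- cells (-1.37, adjusted p = 0.00333) and 338 ± 61.8 FPKM in wild-type cells (-2.03, adjusted p = 0.000101). Pax5 and Ebf1, for which the leukemias are heterozygous by genotype, fell as well against wild type. Pax5 fell to 119 ± 38.3 FPKM against 222 ± 77.9 FPKM in wild type (adjusted p = 0.0338). Ebf1 fell to 66.6 ± 10.8 FPKM against 99.1 ± 14.3 FPKM in wild type (adjusted p = 0.0132). Ebf1 in Ebf1+/- cells was 71.2 ± 24.1 FPKM (adjusted p = 0.717 against wild type). In Ebf1+/- against wild-type cells none of the 13 was called, and 12 of the 13 differences were negative (median -0.54).

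Other homing and adhesion molecules split by gene, with 3 of 14 tested higher and 7 lower in leukemia than in wild type, beside 20.7% of all genes higher and 24.1% lower. In the comparison with Ebf1+/- cells, 1 of 14 was higher and 6 lower, beside 9.31% and 12.3% of all genes. Cd34, a marker of progenitors, and Cd44, the hyaluronan receptor, fell steeply: Cd34 averaged 0.0107 ± 0.0238 FPKM in leukemia against 4.77 ± 1.88 FPKM in wild type, and Cd44 averaged 1.88 ± 1.52 FPKM against 39.7 ± 4.91 FPKM (adjusted p = 0.000103 and 0.000233). Itgb7, for the gut-homing integrin chain, fell to 1.48 ± 0.955 FPKM against 18.2 ± 7.54 FPKM in wild type (-2.95, adjusted p = 0.000282). Itgal, an integrin chain used to stop on vessels, rose by 1.06 (adjusted p = 0.00331), and Icam1, which encodes a partner of that integrin, by 0.67 (adjusted p = 0.00674), both against wild type. Neither was called against Ebf1+/- cells, where Itgal was 36.8 ± 8.2 FPKM in leukemia and 34.9 ± 16.2 FPKM in Ebf1+/- cells (0.14, adjusted p = 0.766) and Icam1 gave 0.33 (adjusted p = 0.21). None of the lists held a gene called in Ebf1+/- against wild-type cells. With Ebf1+/- replicate 2 left out, a setting chosen after the data were seen, 16.6% of all genes were called in leukemia against Ebf1+/- cells. The lists then gave 2 of 4 other chemokine receptors, 3 of 9 S1P genes and 1 of 2 oxysterol genes lower. For the signalling machinery 6 of 20 were lower and 1 higher, for the genes that switch receptors off 1 of 13 was lower and 0 higher, for the transcription factors 4 of 13 were lower and 0 higher, and for the adhesion molecules 5 of 14 were lower and 1 higher.

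**Figure D4:**
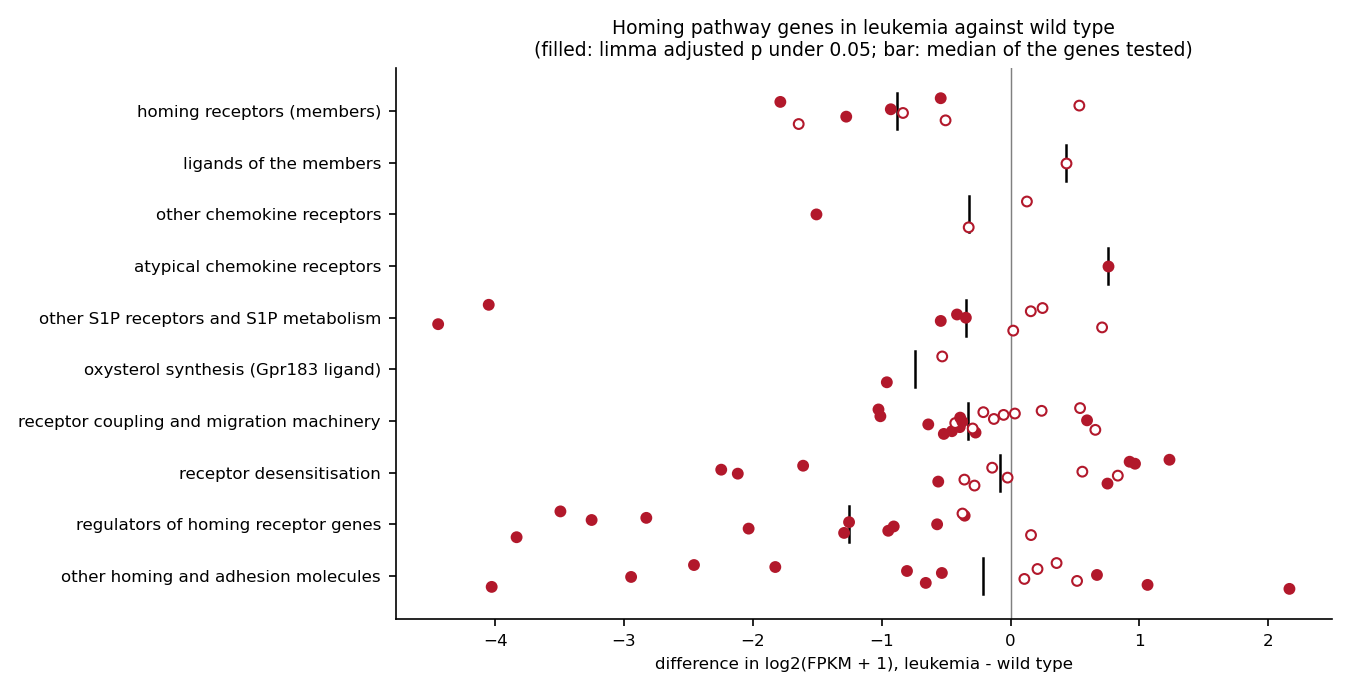
Differences between leukemia and wild type on the log2(FPKM + 1) scale for the tested genes of each list; each circle is 1 gene, filled where limma's adjusted p was under 0.05, and the vertical bar is the list's median. Filled circles of the regulators lie left of 0, whereas the desensitisation and adhesion genes have filled circles on both sides.

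The genes most like each receptor over the 11 libraries, by Pearson correlation of log2(FPKM + 1) among 10553 genes, are a description, since group differences and library composition feed into it. Cxcr4 was most like Sdhaf2 (r = 0.965) and Ppp2r5a (0.963), S1pr4 like Hist1h2bh (0.959) and Dda1 (0.957), S1pr1 like Rpl3l (0.958) and Cdkn1a (0.954), and Ccr7 like Mbd4 (0.919) and Maf1 (0.908). Ccr9 was most like Itgax (0.969), a dendritic cell marker, and Pacsin1 (0.968), one of the plasmacytoid dendritic cell markers. Cxcr3 was closest to Tmem221 (0.963) and Cd209d (0.955), and Gpr183 to Csf1r (0.943), the monocyte growth factor receptor, and Cd3d (0.929), a T cell receptor component. Ccr2 was closest to Fam188a (0.904). Cxcr5 had no gene above Pwwp2b (0.876) and Padi4 (0.795).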

How the data were processed

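The authors deposited 1 table of FPKM values for 23071 gene identifiers in 11 libraries. For leukemia and wild-type samples BWA 0.7.12 is named, and for Ebf1+/- samples TopHat2 and Cufflinks, on mouse build mm10 (GRCm38), per the submitters' processing notes, so alignment and the Ebf1+/- group cannot be told apart. What counted the reads, and on which annotation, is not given in the sources used here. Whole reads were recovered for 17380 of 17380 genes above 0 (100%, within 0.001 read). For each gene the shortest length that made all its values whole reads was taken, so this share follows in part from the search. Counts of a gene that share a factor would come out too low. Reads were not tagged as molecules, so floors cover counting error only. Values were taken as log2(FPKM + 1). Genes averaging 1 FPKM or more in a comparison were tested between its 2 groups with limma 3.58.1 (R 4.3.3; eBayes with a trend; two-sided), adjusted by Benjamini-Hochberg over all of them and counted as called below an adjusted p of 0.05. The fits were tested on simulated data. Versions of the other tools were Python 3.11.15, pandas 2.3.3, NumPy 2.4.6 and Matplotlib 3.10.9. Places are from GENCODE M21.

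The receptor genes, the gene lists, the motifs, the plotted partners and the tests were chosen with earlier results of these data known. All receptors are named; of each list, the 2 called genes of smallest p and genes with a known link to a receptor; and for likeness the 2 genes of highest correlation, leaving out symbols that start with Gm and a digit or end in Rik. Deviations from group means of same-numbered Ebf1+/- and wild-type libraries correlated at 0.65, 0.32 and 0.69, each over 0.1. These numbers were therefore taken to pair the samples, although no label gives a shared day or batch. The main tests left this pairing out, and only the replicate block took it in. The leukemias were single mice and the progenitors pools, so p-values weigh unlike kinds of replicate together. Alternatives were another pseudocount (0.1), no filter, a filter of 5 FPKM, scaling by quantiles or by median ratios, a joint fit of all groups, a replicate block, voom on the recovered reads and leaving out each replicate. Some genes that the rule would name are not reported here.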

Additional observations from a re-analysis of the deposited data

Results flagged for a closer look

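Among the 10 receptors in the 5 leukemias (10 groups tested, of which chance sets apart about 1 in 20), 3 had a single mouse far from the other 4 on the log2 scale. Ccr2 in replicate 2 was high at 36.5 FPKM, against at most 2.16 FPKM in the other leukemias. Ccr6 in replicate 1 was high at 1.24 FPKM, which rests on 22 reads. Cxcr5 in replicate 5 was low at 1.15 FPKM, where the other leukemias ran from 3.62 to 4.86 FPKM. A different mouse stood apart for each gene.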

How the results depend on the processing

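Against wild type, the 4 receptors called in leukemia became 2 with no filter, 2 with quantile scaling, 1 (Cxcr4) with the replicate block, and 2 to 4 with one library left out, 2 without wild-type replicate 1 or 3; Cxcr4 was called in every alternative. Against Ebf1+/- cells, the 2 called receptors became 0 with a filter of 5 FPKM, which removes Ccr9 and Cxcr3, 0 with the replicate block and 1 to 3 with one library left out (1 without Ebf1+/- replicate 1 or 3), and the 2409 genes called became 944 with the block. Replicate numbers did not pair leukemias with progenitors (correlations of -0.13 to 0.07), and leukemia replicates 4 and 5, with no partner, carry no weight in the block. Quantile scaling shifted the median of all genes by 0.10 in this comparison and turned 43.1% of calls higher into 57.3%; relative to that median Ccr9 stood at -1.2 and Cxcr3 at -1.0. For Ebf1+/- against wild-type cells, 0 called genes became 3 with a pseudocount of 0.1, 1 with quantile scaling, 23 with all groups in 1 fit and 0 to 5 with one library left out (5 without Ebf1+/- replicate 3), and the paired fit with the replicate block changed no receptor's call (Cxcr5 adjusted p = 0.0643). Uncalled differences there turned sign with a library left out: Ccr7 ran from -0.4539 to 0.0084, Ccr9 from -0.178 to 0.6159, S1pr1 from -0.3323 to 0.3037 and S1pr4 from -0.1616 to 0.2653, and S1pr4 was -0.0104 with quantile scaling. Apart from these named changes, causes of which were not tested, all receptor differences kept their sign. Depth limits Ccr6, with 0 to 22 reads, and Cxcr3, with 7 to 23 reads in the leukemias.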
